A study of Mus musculus with 30 samples.

Results

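The comparison described here is the addition of an agonist anti-CD40 antibody to anti-PD1 in tumors of wild type mice. It rests on 7 of the 30 tumor RNA libraries of the series, chosen by their labels alone: 3 from mice given both antibodies (the combination) and 4 from mice given anti-PD1. The tumors were subcutaneous B16F10 melanomas, a transplanted mouse line, in female C57BL/6 mice whose genotype label is ARE-del +/+, read here as wild type (WT). Treatment began after 7 days of growth, with doses given 2 times a week. The combination mice are labelled with 0.25 mg of anti-PD1 and anti-CD40, without saying whether that is the amount of each, and the anti-PD1 mice received 0.25 mg of that antibody. Other libraries set this addition beside related ones, and all 30 libraries shared 1 estimate of the spread in the test. The related libraries came from WT mice given 0.25 mg of anti-CD40 alone (3 libraries) or control rat IgG2A (5 libraries). They also came from mice heterozygous for ARE-del (HET) given the combination (4 libraries) or anti-PD1 (3 libraries). Libraries of HET mice given control IgG2A (4 libraries) or anti-CD40 (4 libraries) entered that estimate but no comparison. ARE-del removes an AU-rich element from the interferon-gamma gene of the host. The tumor cells are an implanted line, so they do not carry the host's genotype. The labels do not tie the replicates to separate animals, so a p-value here speaks to the spread among libraries, which may be technical.

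CD40 is a receptor of the tumor necrosis factor receptor family on dendritic cells, macrophages and B cells. When its ligand on T cells binds, or an agonist antibody does, TRAF adaptors pass the signal to NF-kB and the cell raises costimulatory molecules, antigen presentation and cytokines. PD-1 (gene Pdcd1) is an inhibitory receptor of activated T cells. Its ligand PD-L1 (gene Cd274) is induced by interferon-gamma on tumor and myeloid cells. B16F10 is known as a poorly immunogenic tumor with few infiltrating lymphocytes.

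Between 21.1 and 27.6 M reads stood behind each combination library, and between 21.2 and 28 M reads behind each anti-PD1 library. Levels are the authors' log2 CPM values, counts scaled to the size of each library, on which a gene without reads has the value -3.64. The column names carry an L number that the labels do not explain. All 3 combination libraries carry L6, whereas anti-PD1 replicates 1 to 3 carry L5 and only replicate 4 carries L6. The 18 melanocyte markers summed to 37100 to 42100 CPM in combination tumors and 30900 to 41900 CPM in anti-PD1 tumors, with none at 0 reads in all 7 libraries, so the libraries hold the labelled tumor. Anti-PD1 replicates 1 and 3 stood apart from the other 5 libraries. Replicate 1 lay at -90.81 on the first principal component (47.8% of the variance), where the other 6 libraries lay between 0.46 and 31.88. Replicate 3 lay at -56.86 on the second component (19.7% of the variance), and 4.46% of its reads were mitochondrial, against 1.53% to 2.08% in the other 6.

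No gene passed the test between combination and anti-PD1 tumors. Of 15002 genes tested, 0 (0%) had an adjusted p under 0.05 (limma's moderated test with Benjamini-Hochberg adjustment), and the smallest adjusted p was 1, so that every adjusted p of the WT comparison is 1. At an unadjusted p under 0.05 there were 281 genes (1.87%), where about 750 are expected by chance alone. Of these, 122 (0.813%) were higher and 159 (1.06%) were lower in combination tumors. Centring each library on its median gave 94 higher and 191 lower. Limma's voom on recovered whole reads also called 0 genes and placed 236 at an unadjusted p under 0.05. Over all genes tested, the log2 difference was above 0 for 52.2% and below 0 for 47.7%, with a median of 0.01.

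The anti-PD1 libraries spread over a wider range than the combination libraries did. The median SD per gene was 0.158 log2 units among combination tumors and 0.324 among anti-PD1 tumors, and the SD was larger among anti-PD1 tumors for 11987 genes (79.9%). Without anti-PD1 replicate 1 that median was 0.255, and without replicate 3 it was 0.267. For 7243 genes (48.3%) all 3 combination libraries lay inside the range of the 4 anti-PD1 libraries. At the other end, 606 genes (4.04%) had groups that did not overlap. Every combination library lay above the anti-PD1 libraries for 336 (2.24%) and below them for 270 (1.8%). By chance alone a share of about 0.057 of genes would not overlap, given the 35 possible assignments of the libraries.

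**Figure D1:**
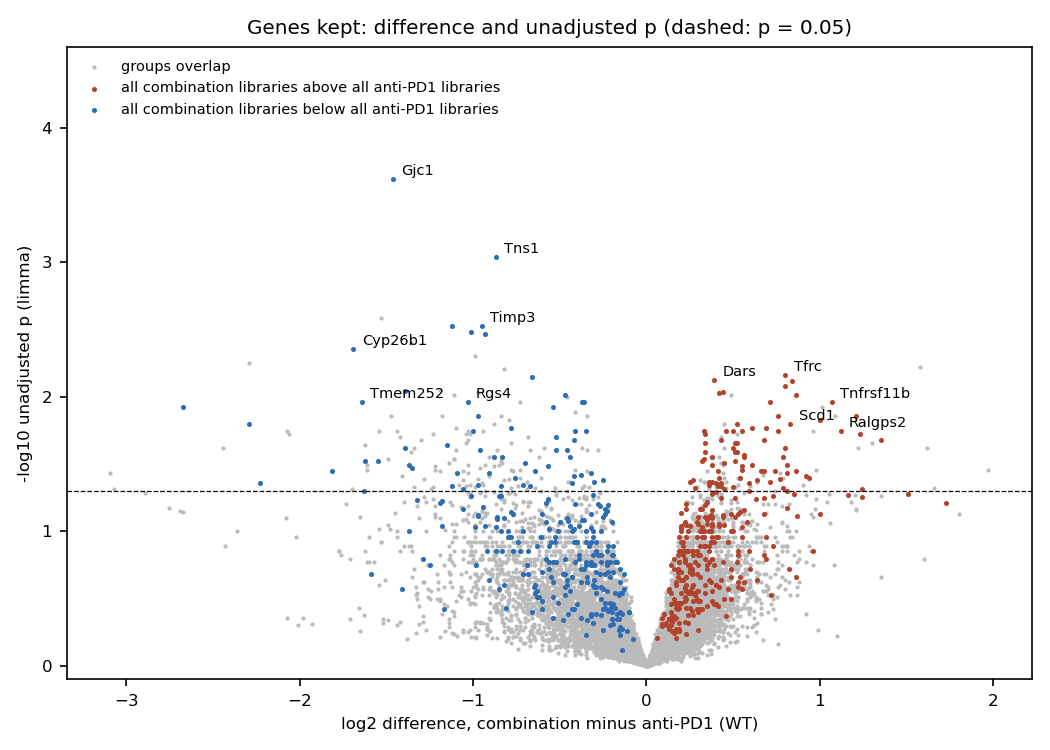
Each point is 1 of the 15002 genes tested, by log2 difference (combination minus anti-PD1, WT, horizontal axis) and -log10 of limma's unadjusted p (vertical axis). Red and blue points are the 336 and 270 genes with all combination libraries above and below all anti-PD1 libraries. The dashed line marks an unadjusted p of 0.05. No gene passed after adjustment, and Gjc1 has the smallest unadjusted p.

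The receptor and ligand genes that the antibodies bear on were scarce, apart from Cd274, and their groups overlapped. Cd40 (chromosome 2, 165055627 to 165072948, plus strand; coordinates are GENCODE vM21 on mm10) had -1.3, -0.72 and -0.72 log2 CPM in combination tumors, against 0.71, -0.61, -1 and -1.28 in anti-PD1 tumors. Those levels rest on 35 reads over the combination libraries and 69 over the anti-PD1 libraries. The difference was -0.37, with an exact permutation p of 0.63 (two-sided) over all 35 assignments of the libraries, where the smallest p possible is 0.057. Anti-PD1 replicate 1 was the highest of the 7 libraries, and the other 3 anti-PD1 tumors lay among or near the combination tumors. Cd40lg, the gene of the CD40 ligand, was sought under that symbol and gave no values, so it was not analysed here.

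Pdcd1, the gene of the receptor that anti-PD1 binds, had 10 reads in combination tumors and 32 in anti-PD1 tumors, a difference of -0.07 (exact permutation p = 1). Cd274, which encodes PD-L1, averaged 29.3 ± 2.49 CPM in combination tumors and 38.4 ± 11.3 CPM in anti-PD1 tumors (SD). Its log2 levels were 4.77, 5.01 and 4.84 with the combination, against 5.77, 5.04, 5.24 and 4.84 with anti-PD1, a difference of -0.35 (exact permutation p = 0.17). Every combination value lay below all but the lowest anti-PD1 value. Without anti-PD1 replicate 1 the anti-PD1 mean of Cd274 was 33.1 CPM. Pdcd1lg2, the gene of the second PD-1 ligand, had 8 reads in each group and Ifng had 2 reads in combination tumors and 9 in anti-PD1 tumors. Both were under the filter on low values. A difference in such genes was not detectable at this depth.

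Genes of the CD40 signal and its NF-kB targets showed no call. The list holds 25 genes, of which 22 passed the filter and 0 were called, where 0% of all genes were. Of the 22, 3 were higher and 19 lower in combination tumors, with a median difference of -0.20, where 47.7% of all genes were lower. That median was -0.11 without anti-PD1 replicate 1. The list score, the mean log2 CPM of the members kept, was 2.74, 3.1 and 3.05 in combination tumors and 3.68, 3.13, 3.18 and 2.9 in anti-PD1 tumors, so the groups overlapped. Traf3, an adaptor that holds the noncanonical NF-kB pathway in check, had a difference of -0.09 ± 0.21 (limma's SE) and Bcl2l1, an antiapoptotic target, one of -0.16 ± 0.32. The smallest unadjusted p values of the list, neither under 0.05, were those of Bcl3, an NF-kB cofactor (difference -0.70), and Nfkbia, which encodes the inhibitor of NF-kB (difference -0.54).

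Dendritic cell genes were sparse, with 12 of 20 passing the filter. Of these, 2 were higher and 10 lower, with a median of -0.56, which was -0.23 without combination replicate 1, -0.30 without anti-PD1 replicate 1 and -0.93 without anti-PD1 replicate 4. Itgax, the gene of CD11c, had -0.76, 1.16 and 0.54 log2 CPM in combination tumors, against 3.13, 2.71, 1.43 and -0.73 in anti-PD1 tumors. The lowest library of each group was about equally low, and anti-PD1 replicates 1 to 3 were above every combination tumor. Its difference was -1.32 ± 0.68. Fscn1 and Tmem123, which other cells of a tumor express as well, had the highest levels of the list and differences of 0.04 and 0.19.

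Targets of interferon-gamma had a nearly constant level in combination tumors that lay within the spread of the anti-PD1 tumors. The list score was 3.25, 3.25 and 3.35 in combination tumors, against 5.45, 4.23, 3.02 and 2.1 in anti-PD1 tumors. For 28 of the 30 members kept, all 3 combination libraries lay inside the anti-PD1 range, where 48.3% of all genes did. The median difference was -0.45, with 4 members higher and 26 lower, and without anti-PD1 replicate 1 it was 0.13. Irgm1, an interferon-induced GTPase, had 6.46, 6.52 and 6.52 log2 CPM in combination tumors, against 7.83, 6.71, 5.96 and 5.52 in anti-PD1 tumors. Irf8, a transcription factor of myeloid cells, had the smallest p of the list, with a difference of -1.27 ± 0.65. Cxcl9, a chemokine that attracts T cells and a gene chosen after its values were seen, had 78, 100 and 95 reads in combination tumors, against 1255, 375, 70 and 5 in anti-PD1 tumors. Its reads thus spanned a wide range among anti-PD1 tumors and a narrow one among combination tumors.

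Type I interferon targets showed no common direction, with 15 of 29 members higher and 14 lower and a median of 0.01. Ifit2, an antiviral gene, had a difference of 0.33 ± 0.26 and Rsad2, the gene of viperin, one of -0.27 ± 0.35. In 2 of the 29 members, named after their values were seen, every combination library lay above every anti-PD1 library, where 2.24% of all genes did. Usp18, a negative regulator of interferon signalling, averaged 25.8 ± 3.19 CPM in combination tumors and 18.4 ± 2.78 CPM in anti-PD1 tumors (SD). Ddx58, the gene of the RNA sensor RIG-I, averaged 51.3 ± 2.87 CPM in combination tumors and 39.3 ± 3.6 CPM in anti-PD1 tumors (SD). Neither had an unadjusted p under 0.05 in limma's test.

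Antigen presentation followed the same arrangement of libraries as the interferon-gamma targets. MHC class II and its loading genes summed to 120, 143 and 166 CPM in combination tumors, against 582, 316, 146 and 103 CPM in anti-PD1 tumors. Anti-PD1 replicates 1 and 2 were the highest, and replicate 4 the lowest, of the 7 libraries. These sums include Ifi30, the member with the highest mean log2 level, which made up much of the lower sums. It averaged 85.3 ± 1.14 CPM in combination tumors and 92.7 ± 18.9 CPM in anti-PD1 tumors (SD). Of 10 members kept, 1 was higher and 9 lower, with a median of -1.12, which was -0.46 without anti-PD1 replicate 1 and -1.76 without replicate 4. Ctss, a protease that processes the invariant chain, had 3.72, 4.91 and 4.58 log2 CPM in combination tumors and 7.27, 6.12, 4.88 and 3.59 in anti-PD1 tumors (difference -1.06 ± 0.73). H2-Aa, a class II chain chosen after its values were seen, had 51, 94 and 265 reads in combination tumors and 1309, 873, 102 and 36 in anti-PD1 tumors. How reads of near-identical MHC genes were assigned is not given in the sources used here, so their division between family members is uncertain. Among 21 class I and peptide loading genes, 2 were higher and 19 lower, with a median of -0.23, which turned to 0.03 without anti-PD1 replicate 1 and was -0.53 without replicate 4. B2m, the shared light chain, differed by -0.00 ± 0.28, and Tapbp, the gene of tapasin, by -0.38 ± 0.33.

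Lymphocyte genes stood near the detection limit. Of 25 T cell genes 8 passed the filter, all 8 lower in combination tumors, with a median of -0.56, which was -0.31 without anti-PD1 replicate 1 and -1.08 without replicate 4. Their summed levels were 29.1, 33.8 and 41 CPM in combination tumors, against 99.4, 50.7, 47.3 and 31.4 CPM in anti-PD1 tumors. The highest members, Thy1 and Tcf7, are not confined to T cells. Cd8a, the coreceptor of cytotoxic T cells, had 5, 7 and 13 reads in combination tumors and 22, 37, 7 and 3 in anti-PD1 tumors, a difference of -0.59 (exact permutation p = 0.46). Cd4 had 17 reads over the combination tumors and 43 over the anti-PD1 tumors. In bulk tissue, fewer cells of a type and less RNA per cell cannot be told apart.

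Only 5 of 18 cytotoxic and NK cell genes passed the filter, all lower, with a median of -0.40 that was 0.12 without anti-PD1 replicate 1. Gzmb, which encodes the killer protease granzyme B, had -2.98, -2.64 and -2.73 log2 CPM in combination tumors, against 0.46, -2, -2.19 and -3.64 in anti-PD1 tumors. Anti-PD1 replicate 1 was far above the other 6 libraries. Among 7 B and plasma cell genes kept, 1 was higher and 6 lower, with a median of -0.87, which was -0.52 without combination replicate 1. Cd79b, a chain of the B cell receptor, was lower in every combination tumor, at -2.19, -3.05 and -2.43 against -1.1, -1.25, -0.75 and -1.66 in anti-PD1 tumors (difference -1.37 ± 0.81).

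Myeloid genes were mostly lower in combination tumors and passed no test. Of 21 macrophage genes, 2 were higher and 19 lower, with a median of -0.67. That median was -0.18 without combination replicate 1 and -0.27 without anti-PD1 replicate 1, against -1.11 without combination replicate 3 and -1.21 without anti-PD1 replicate 4. The list scores were 1.93, 2.64 and 3.51 in combination tumors, against 4.51, 3.67, 3.15 and 1.89 in anti-PD1 tumors, so each group ran from low to high. Lyz2, the lysozyme gene of macrophages, differed by -0.76 ± 0.70 and Apoe, a lipid carrier that other cells also make, by 0.01 ± 0.28. All 13 monocyte-attracting chemokine and receptor genes were lower, with a median of -0.54, as were all 15 neutrophil genes kept, with a median of -0.90. S100a9, a neutrophil alarmin gene, had 0.08, -1.04 and 0.6 log2 CPM in combination tumors and 2.84, -2, 2.46 and 1.45 in anti-PD1 tumors, a difference of -1.31 ± 1.39. Without combination replicate 1 the chemokine median was -0.26, and without anti-PD1 replicate 1 the neutrophil median was -0.51. The complement list had 3 members higher and 16 lower, with a median of -0.56, and the Fc receptor list 1 higher and 6 lower, with a median of -0.39. Without anti-PD1 replicate 1 these medians were -0.20 for complement and -0.17 for Fc receptors, and without replicate 4 they were -1 for complement and -1.02 for Fc receptors. Fcgr2b, the inhibitory receptor for IgG, differed by -0.33 ± 0.34.

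Checkpoint and costimulatory families passed no test either. Of 14 checkpoint genes kept, 4 were higher and 10 lower, with a median of -0.22. It was -0.02 without combination replicate 1, -0.08 without anti-PD1 replicate 1, -0.12 without replicate 2 and -0.50 without replicate 4. Lag3, an inhibitory receptor of T cells, differed by -0.57 ± 0.45 and Sirpa, which receives a signal that restrains phagocytosis, by 0.07 ± 0.19. The tumor necrosis factor receptor and ligand families had 3 of 21 members higher and 18 lower, with a median of -0.29, which was -0.07 without combination replicate 1 and -0.10 without anti-PD1 replicate 3. Tnfrsf11b (chromosome 15, 54250619 to 54278484, minus strand), which encodes osteoprotegerin, a decoy receptor for the RANK ligand, had 3.91, 4.93 and 4.25 log2 CPM in combination tumors. Its levels were 3.03, 3.27, 3.13 and 3.75 in anti-PD1 tumors, so the groups did not overlap. The difference was 1.07 ± 0.39. Tnfrsf22, another decoy receptor of the family in mice, had a difference of 0.52 ± 0.21, with 1 combination library inside the anti-PD1 range.

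**Figure D2:**
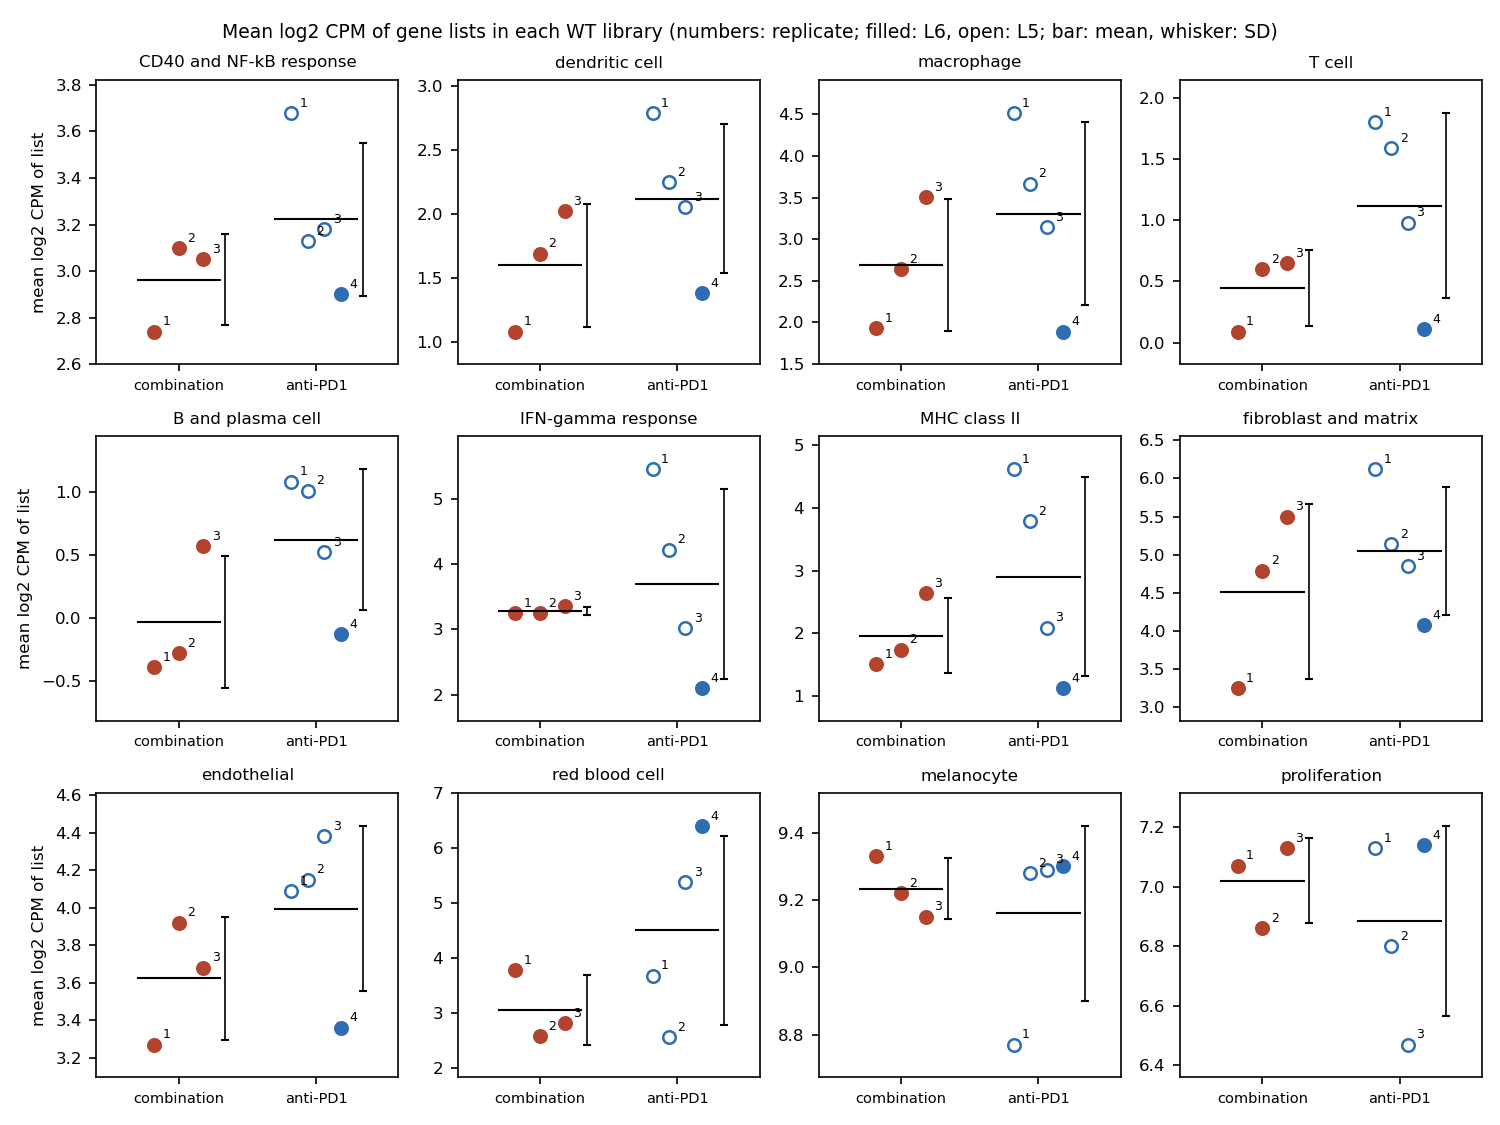
Points are the mean log2 CPM of 12 gene lists in each WT library, numbered by replicate, with combination tumors in red at left and anti-PD1 tumors in blue at right. Filled points carry L6 and open points L5, bars are group means and whiskers are SD. In the interferon-gamma panel the 3 combination tumors lie between 3.25 and 3.35, inside the anti-PD1 range of 2.1 to 5.45.

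Melanocyte genes and hypoxia and glycolysis genes split between both directions, while most proliferation genes were higher in combination tumors. Of 18 melanocyte genes, 11 were higher and 7 lower, with a median of 0.04. Dct, a pigment enzyme, had 13.36, 13.21 and 13.12 log2 CPM in combination tumors, against 12.86, 13.08, 13.28 and 13.32 in anti-PD1 tumors. Mitf, the master transcription factor of melanocytes, had 9.66, 9.68 and 9.4 in combination tumors, against 7.61, 9.67, 8.86 and 9.64 in anti-PD1 tumors, where replicate 1 was the lowest. Its difference was 0.63 ± 0.48. Proliferation genes were higher for 28 of 30 members with a small median of 0.14. That median was 0.01 without anti-PD1 replicate 3, the lowest library of the list at a score of 6.47, and -0.12 against anti-PD1 replicate 4 alone. Rrm2, a subunit of ribonucleotide reductase, had the smallest p of the list, with a difference of 0.44 ± 0.24. Hypoxia and glycolysis genes were higher for 15 of 24 members, where 52.2% of all genes were, with a median of 0.08. That median was -0.04 without combination replicate 2, 0.01 without anti-PD1 replicate 1 and -0.10 against anti-PD1 replicate 4 alone. Aldoc, an aldolase of glycolysis, had 7.17, 7.49 and 6.98 log2 CPM in combination tumors and 5.87, 6.87, 6.61 and 6.8 in anti-PD1 tumors, with no overlap (difference 0.68 ± 0.31).

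Lists that can reflect handling or the hour of sampling also differed among the anti-PD1 libraries. Immediate early genes had 2 members higher and 20 lower, with a median of -0.42, which was -0.06 without anti-PD1 replicate 1. Dusp1, a phosphatase of the early stress response, had 3.99, 4.35 and 3.99 log2 CPM in combination tumors and 5.99, 3.98, 5 and 4.56 in anti-PD1 tumors (difference -0.78 ± 0.35). Its combination values were spanned by the lowest and next lowest anti-PD1 values. Circadian clock genes split into 10 higher and 8 lower, with a median of 0.03. Nfil3, a repressor of the clock, had a difference of -0.97 ± 0.34. The 15 mitochondrially encoded genes had a median of -0.24, which was 0.04 without anti-PD1 replicate 3. What these lists contribute to other differences was not tested.

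Fibroblast and matrix genes were mostly lower in combination tumors and passed no test. Of 25 members, 1 was higher and 24 lower, with a median of -0.49, and 4 lower members had an unadjusted p under 0.05, where 1.06% of all genes did. Col6a2, a chain of collagen VI, had 4.48, 5.49 and 5.9 log2 CPM in combination tumors, against 6.71, 6.13, 7.12 and 5.66 in anti-PD1 tumors, so 1 combination library overlapped the anti-PD1 range. Its difference was -1.11 ± 0.40, and that of Col6a1, its partner chain, was -1.04 ± 0.42. Combination replicate 1 had the lowest list score of the 7 libraries, 3.25, and without it the list median was 0.09. Without anti-PD1 replicate 1 it was -0.15, and without combination replicate 3 it was -1.07.

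Endothelial genes had 3 of 20 members higher and 17 lower, with a median of -0.36, which was -0.15 without anti-PD1 replicate 3 and -0.17 without combination replicate 1. Sox17 (chromosome 1, 4490931 to 4497354, minus strand), a transcription factor of arterial endothelium, had 0.56, 1.07 and 0.88 log2 CPM in combination tumors and 2.23, 1.66, 2.05 and 1.12 in anti-PD1 tumors. Every combination library lay below every anti-PD1 library, although the nearest pair differed little. The difference was -0.93 ± 0.29. Robo4, a receptor that stabilises vessels, differed by -0.82 ± 0.27, with an overlap of the groups. Pan-endothelial Eng differed by -0.12 ± 0.15.

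A list of 15 genes of pericytes and vascular smooth muscle (mural cells) was added after the lower genes named below had been seen, so its members were not chosen independently of them. All 14 members kept were lower in combination tumors, with a median of -0.69, and the list scores ran from 2.97 to 3.42 in combination tumors and from 3.49 to 4.69 in anti-PD1 tumors. Notch3, a receptor of mural cells, had 3.98, 3.4 and 3.91 log2 CPM in combination tumors and 4.47, 4.42, 5.74 and 4.23 in anti-PD1 tumors, with no overlap (difference -0.96 ± 0.40). Rgs5, a pericyte gene, had 5.39, 5.26 and 5.66 in combination tumors and 5.65, 6.07, 7.14 and 5.54 in anti-PD1 tumors (difference -0.66 ± 0.37). Anti-PD1 replicate 3 was the highest library for both genes, and without it the list median was -0.40.

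Tissues that surround a tumor were present in unequal amounts. Keratinocyte genes summed to 14.6, 19.9 and 22.2 CPM in combination tumors, against 126, 15, 27 and 16.5 CPM in anti-PD1 tumors, with anti-PD1 replicate 1 far above the rest. Flg was at 0 reads in all 7 libraries, and Krt5, a keratin of basal skin cells, had 4.46 log2 CPM in anti-PD1 replicate 1 and at most -2 in the other 6 libraries. Skeletal muscle genes summed to 290 to 502 CPM in combination tumors and to 376 to 807 CPM in anti-PD1 tumors, again with replicate 1 the highest. Tpm1, the member with the highest mean log2 level, made up much of the lower sums. It averaged 340 ± 77.1 CPM in combination tumors and 380 ± 26.5 CPM in anti-PD1 tumors (SD). The muscle list score was 3.76 in anti-PD1 replicate 1, against -0.67 to 1.51 in the other 6 libraries. Red blood cell genes summed to 894, 724 and 736 CPM in combination tumors and to 678, 673, 2200 and 5260 CPM in anti-PD1 tumors. These sums include Tfrc, which averaged 417 ± 17.7 CPM in combination tumors and 263 ± 109 CPM in anti-PD1 tumors (SD). Hba-a1, an alpha globin gene with a near-identical copy, was high in anti-PD1 replicates 3 and 4, at 8.8 and 9.85 log2 CPM, against at most 5.44 in the other 5 libraries (difference -3.09 ± 1.41). Adipocyte genes had 4 of 17 members higher and 13 lower, with a median of -1.03. That median was 0.22 against anti-PD1 replicate 4 alone. Fabp4, a lipid carrier of fat and of small vessels, differed by -1.10 ± 0.43. The members with the highest levels went the other way, Scd1 by 0.83 ± 0.32 and Fasn by 0.28 ± 0.29. Summed levels of the list were 1480, 1160 and 1190 CPM in combination tumors, against 1090, 1320, 786 and 1130 CPM in anti-PD1 tumors. The part of skin, muscle, blood or fat in the other results was not tested, apart from a fit that took the scores of keratinocyte and muscle genes as covariates, in which 0 genes were called and 446 had an unadjusted p under 0.05.

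Among the 28 lists, 0 members were called, no list score separated the groups, and for 14 lists all 3 combination scores lay inside the anti-PD1 range. The median was below 0 in 23 lists and above 0 in 5. Leaving out 1 of the 7 libraries moved the median by over 1.5 times, or turned its sign, in 27 lists, all but the adipocyte list, and turned its sign in 10. Anti-PD1 replicate 1 had the highest score of all 7 libraries in 21 lists, and replicate 4 the lowest of the 4 anti-PD1 scores in 20. The added mural list is outside these counts.

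Directions differed when the comparison was kept within 1 L number. Against anti-PD1 replicate 4 alone, the one anti-PD1 library that shares L6 with the combination, the median was above 0 in 19 of the 28 lists, and 18 lists turned from below 0 against all anti-PD1 libraries to above 0. The interferon-gamma list had a median of -0.45 against all 4 anti-PD1 libraries and of 0.93 against replicate 4, with 30 of its 30 members higher. Against replicate 4 the median was 0.90 for MHC class II, 0.88 for macrophage, 0.31 for T cell and 0.36 for fibroblast genes, each of which was below 0 against all 4. It was -4.63 for red blood cell genes and -0.38 for mural genes, which were below 0 in both. A fit with L number as a covariate gave the same medians, since replicate 4 is the only link between these groups within L6. In that fit 0 genes were called and 44 had an unadjusted p under 0.05. With 1 anti-PD1 library in L6, the part of the L number and that of this library cannot be told apart.

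**Figure D3:**
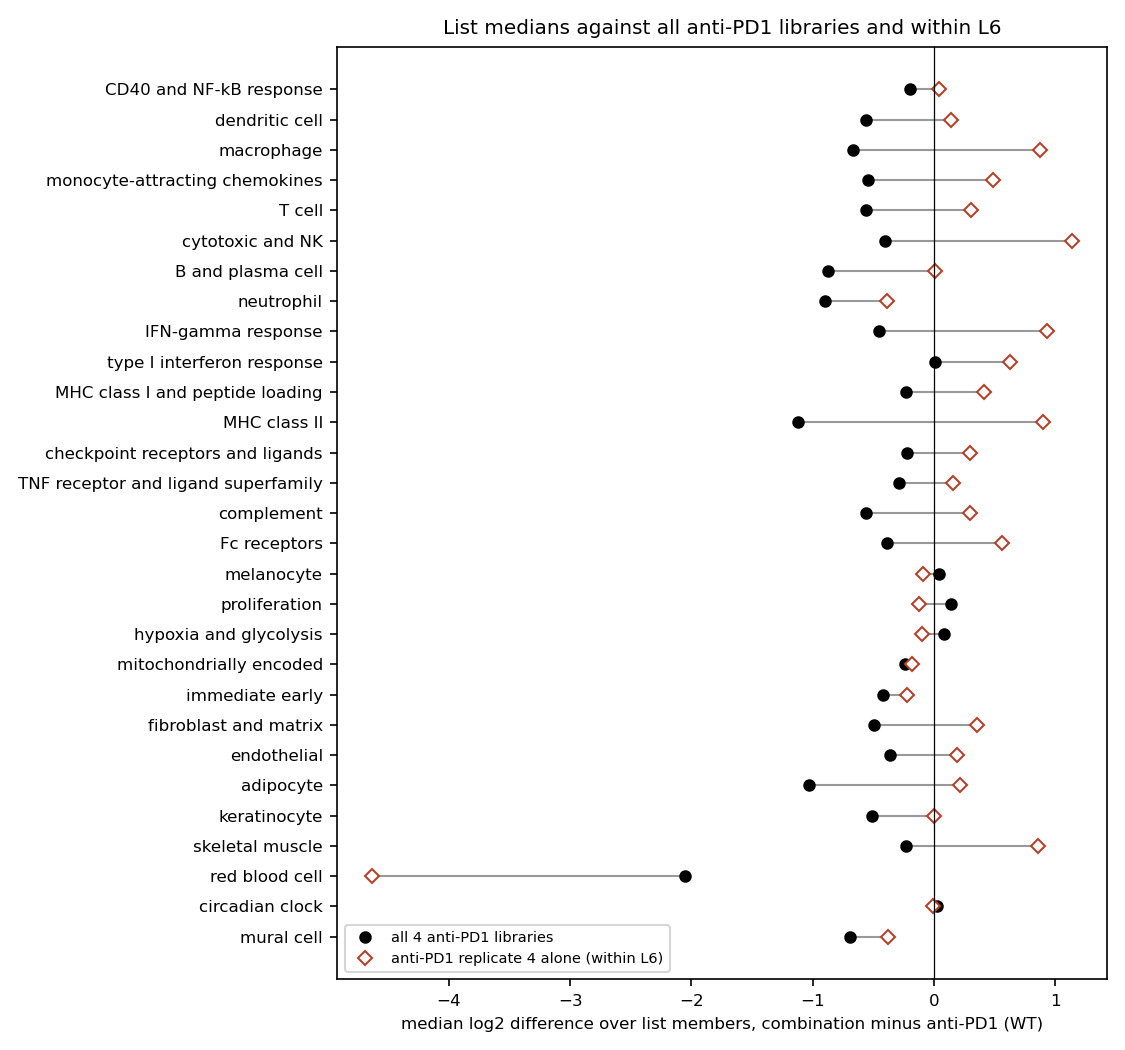
For each gene list, the median log2 difference of combination minus anti-PD1 (WT) is plotted against all 4 anti-PD1 libraries (black) and against anti-PD1 replicate 4 alone, which shares L6 (open diamonds). The interferon-gamma list moves from -0.45 to 0.93, and the red blood cell list from -2.05 to -4.63.

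Single genes were named by 1 rule: a mean level of at least 1 log2 CPM, groups that do not overlap, and either 1 of the 15 smallest p values or 1 of the 5 largest differences in a direction. It gave 18 genes higher and 17 lower in combination tumors, none of which passed after adjustment. Since the rule picks extremes, their separation is a description of these 7 libraries.

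The lower genes were led by Gjc1 (chromosome 11, 102799579 to 102819700, minus strand), which encodes connexin 45, a gap junction protein of vascular smooth muscle. It had the smallest p of all genes tested. Its levels were 2.98, 2.77 and 2.41 log2 CPM in combination tumors, against 4.47, 3.93, 4.43 and 3.9 in anti-PD1 tumors, a gap wider than either group's range. The difference was -1.46 ± 0.34 (SE; limma, adjusted p = 1). Tns1 (chromosome 1, 73910231 to 74124449, minus strand), which links integrin adhesions to actin, had 4.31, 4.96 and 4.68 in combination tumors and 5.58, 5.52, 5.98 and 4.98 in anti-PD1 tumors. Combination replicate 2 and anti-PD1 replicate 4 nearly met. Its difference was -0.87 ± 0.23.

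Timp3, an inhibitor of matrix metalloproteinases on chromosome 10, had 5.54, 5.81 and 5.64 log2 CPM in combination tumors, against 6.54, 6.09, 7.32 and 6.5 in anti-PD1 tumors (difference -0.95 ± 0.29). Cyp26b1, an enzyme that breaks down retinoic acid, had the largest difference of the lower genes, -1.69 ± 0.54. Its levels were 1.61, 0.07 and 1.53 in combination tumors and 2.72, 2.12, 4.08 and 2.14 in anti-PD1 tumors. For both genes anti-PD1 replicate 3 was the highest library. That replicate was also the highest for Rgs4, a regulator of G protein signalling (-1.03 ± 0.37), for Gpr4, a proton-sensing receptor of endothelium (-0.97 ± 0.37), and for Steap4, a metalloreductase (-1.32 ± 0.67). Cacna1c, the pore subunit of an L-type calcium channel, had 2.77, 1.82 and 2.03 in combination tumors and 3.36, 2.95, 4.13 and 3.94 in anti-PD1 tumors (difference -1.39 ± 0.58). Tnip2, which binds the NF-kB inhibitor A20, differed by -0.66 ± 0.23, Peli2, a ubiquitin ligase of Toll-like receptor signalling, by -1.01 ± 0.31, and Tmem252 by -1.64 ± 0.60. The other lower genes were Prkcd, a protein kinase C, Csnk1e, a casein kinase of the clock, Crtc2, a CREB coactivator, Plekhg5, a guanine nucleotide exchange factor, and Srsf4, a splicing factor. The differences of these ran from -0.54 to -0.35.

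The higher genes were led by Tfrc (chromosome 16, 32608920 to 32632794, plus strand), the transferrin receptor through which cells take up iron. It had 8.64, 8.71 and 8.76 log2 CPM in combination tumors, against 8, 8.5, 6.81 and 8.33 in anti-PD1 tumors. The combination tumors were nearly equal, and anti-PD1 replicate 3 was far below the rest. The difference was 0.80 ± 0.27. Scd1 (chromosome 19, 44394455 to 44407879, minus strand), the desaturase that makes oleic acid, had 8.43, 8.05 and 8.4 in combination tumors and 7.42, 7.79, 6.75 and 7.9 in anti-PD1 tumors. Its difference was 0.83 ± 0.32, with the lowest level again in anti-PD1 replicate 3.

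Dars, the cytosolic aspartyl-tRNA synthetase, differed by 0.39 ± 0.14, with anti-PD1 replicate 3 the lowest. Anti-PD1 replicate 1 was the lowest library for Tspyl4 (0.84 ± 0.29), for the transcript A930004D18Rik (0.80 ± 0.28), for Rasa3, a GTPase-activating protein (0.44 ± 0.16), and for Gpr37, an orphan receptor (0.94 ± 0.43). Gjc3, which encodes connexin 29 of myelinating glia, had 6.52, 6.11 and 5.93 log2 CPM in combination tumors and 5.21, 5.37, 5.26 and 5.88 in anti-PD1 tumors (difference 0.76 ± 0.29). Bche, the gene of butyrylcholinesterase, had the largest difference, 1.24 ± 0.62, at 1.7, 1.87 and 1.63 in combination tumors and 0.46, 0.26, 0.26 and 0.99 in anti-PD1 tumors. Ralgps2, an exchange factor for Ral, differed by 1.12 ± 0.44, Adamts5, a protease that cuts aggrecan, by 0.69 ± 0.27, and Sp100, a nuclear body protein induced by interferon, by 1.00 ± 0.54. The others were Lyrm7, an assembly factor of respiratory complex III, Lipt2, which transfers lipoyl groups, Gdpgp1, Zadh2 and BC064078, with differences between 0.42 and 0.86.

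**Figure D4:**
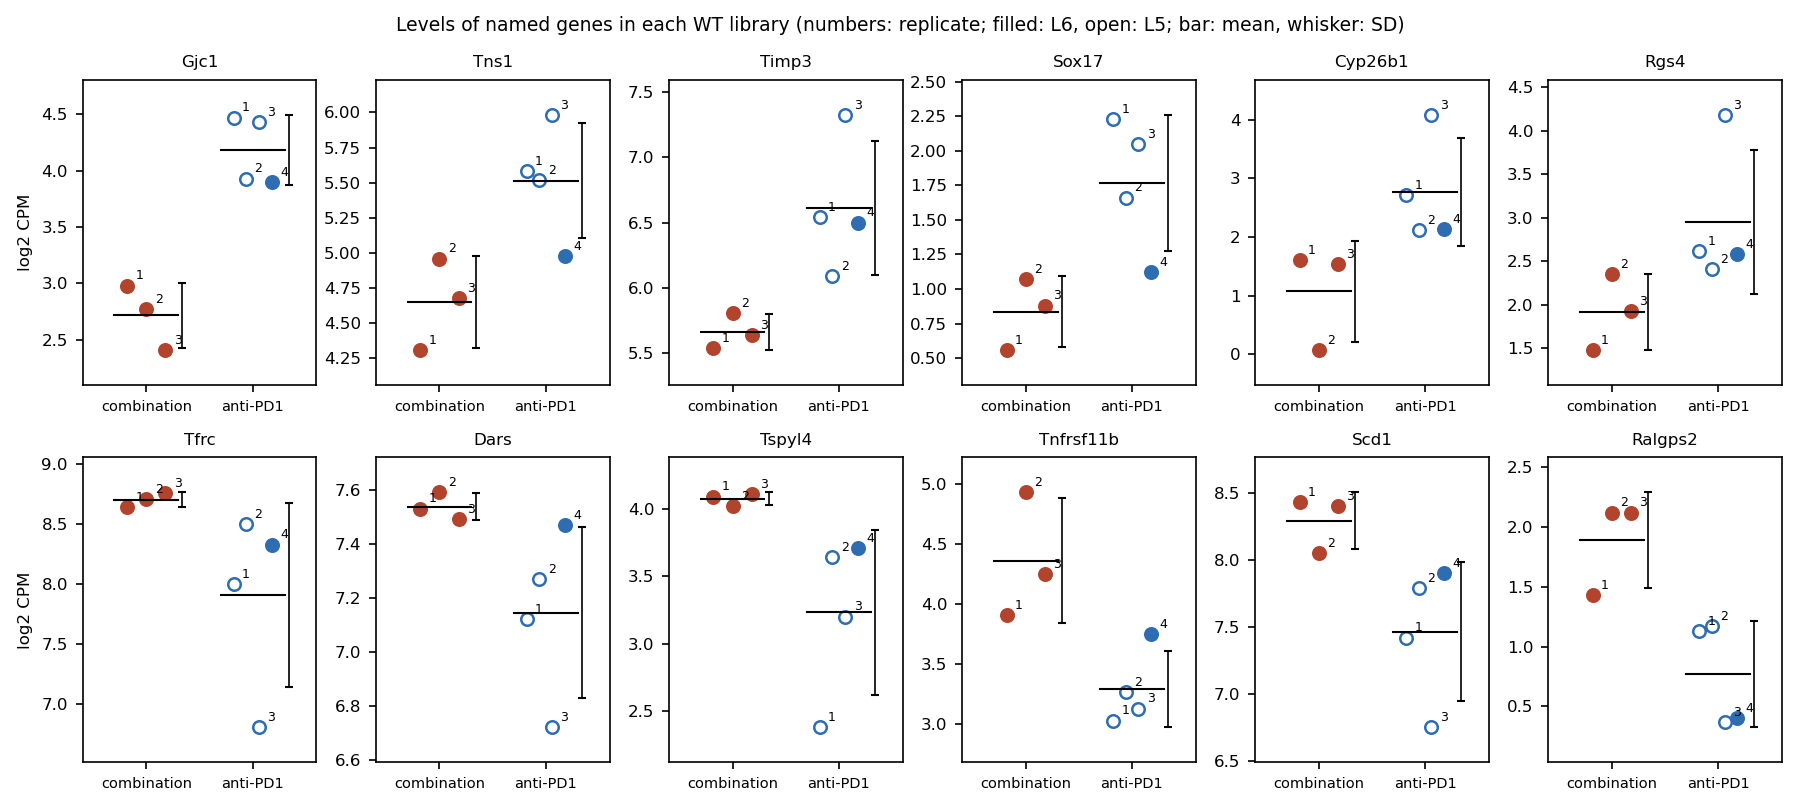
Levels in log2 CPM of 6 lower and 6 higher named genes in each WT library, numbered by replicate, with combination tumors in red at left and anti-PD1 tumors in blue at right. Filled points carry L6 and open points L5, bars are means and whiskers are SD. The genes were chosen for groups that do not overlap, and Gjc1 has the widest gap, with combination tumors at 2.41 to 2.98 and anti-PD1 tumors at 3.9 to 4.47.

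The same antibody was added to anti-PD1 in HET mice, in libraries that share none with the WT comparison. There the combination libraries all carry L8 and the anti-PD1 libraries all carry L7, so that L number and treatment cannot be told apart. In the HET comparison 0 genes (0%) were called and 1765 (11.8%) had an unadjusted p under 0.05, 922 higher (6.15%) and 843 lower (5.62%). Of the 17 lower genes named in WT tumors, 15 were also lower in HET combination tumors, 5 of them at an unadjusted p under 0.05, where 49.8% of all genes were lower. Gjc1 averaged lower in HET combination tumors by a log2 difference of -1.25 ± 0.34 (limma, adjusted p = 0.37). Rgs4 differed by -1.13 ± 0.37, Plekhg5 by -0.63 ± 0.20, Tnip2 by -0.57 ± 0.23 and Cacna1c by -1.26 ± 0.58, with adjusted p values between 0.37 and 0.41.

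Of the 18 higher genes, 13 were also higher in HET combination tumors, where 50.2% of all genes were, 2 of them at an unadjusted p under 0.05. Ralgps2 had a difference of 2.16 ± 0.44 (limma, adjusted p = 0.37) and Adamts5 one of 0.88 ± 0.27 (limma, adjusted p = 0.37). Tfrc differed by 0.39 ± 0.27 and Scd1 by 0.02 ± 0.32 in the HET comparison. Over all genes without overlap in WT tumors, 196 of 336 higher ones (58.3%) and 167 of 270 lower ones (61.9%) had the same direction in HET tumors. Across all 15002 genes, which are not independent, the WT and HET differences ran the other way, with a Pearson r of -0.30.

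Many list medians lay on the other side of 0 in HET mice. Of the 23 lists with a median below 0 in WT tumors, 20 had one above 0 in HET tumors, immune and other tissue lists alike. The CD40 and NF-kB list was near 0 there, at 0.01, and type I interferon targets were above 0 in both, at 0.01 in WT and 0.31 in HET tumors. The interferon-gamma list had a median of -0.45 in the WT comparison and of 1.34 in the HET comparison, with 29 of 30 members higher in HET combination tumors. MHC class II had medians of -1.12 in WT and 2.78 in HET tumors, and macrophage genes -0.67 in WT and 1.59 in HET tumors. Markers of surrounding tissues moved with them: in HET combination tumors 23 of 23 keratinocyte genes were higher, with a median of 2.94, 22 of 24 skeletal muscle genes, with one of 1.97, and 14 of 17 adipocyte genes, with one of 1.25. The difference between the WT and the HET response was called for 0 genes (0%), and 952 genes (6.35%) had an unadjusted p under 0.05, 302 (2.01%) with the higher and 650 (4.33%) with the lower response in WT. With keratinocyte and muscle scores as covariates those were 138 and 238. They were 187 and 295 without combination replicate 1, 955 and 1050 in a fit of only the groups compared, and 1429 and 1286 with library weights, so the excess of lower responses depended on the fit. Unadjusted p values under 0.05 occurred in 14 of 30 interferon-gamma genes, 9 of 10 MHC class II genes, 13 of 19 complement genes and 14 of 25 fibroblast genes. They occurred in 3 of 29 type I interferon genes and 1 of 23 keratinocyte genes. The median WT minus HET difference was nonetheless -3.79 for keratinocyte genes, with 0 of 23 higher. It was -3.88 for MHC class II and -0.17 for type I interferon genes. Krt5 differed by -6.39 with an SE of 3.70. H2-Aa had a WT minus HET difference of -4.91 ± 1.52 (limma, adjusted p = 0.75). Cd274 had one of -0.17. With L number as a covariate 26 genes had an unadjusted p under 0.05, and 0 were called.

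Anti-CD40 given without anti-PD1 served as the other comparison, again with no shared library. The WT anti-CD40 libraries all carry L6 and the WT IgG libraries all carry L5, so that L number and treatment cannot be told apart. Against IgG it called 0 genes (0%) in WT tumors, with 777 (5.18%) at an unadjusted p under 0.05. The response to anti-CD40 with anti-PD1 minus that without it was called for 0 genes (0%), with 460 (3.07%) at an unadjusted p under 0.05, 249 with the higher and 211 with the lower response in the presence of anti-PD1. Centring on library medians made those 167 and 286. They were 102 and 120 without anti-PD1 replicate 1, 379 and 313 without replicate 2, 365 and 402 without replicate 4, 132 and 117 without combination replicate 1, and 126 and 172 without combination replicate 2. They were 123 and 136 with keratinocyte and muscle scores as covariates. With library weights they were 98 and 25 (405 and 538 with limma's gene-by-gene weights). With L number as a covariate they were 404 and 433. That fit takes its L5 to L6 shift from WT anti-PD1 alone, the only group with both L numbers. With none of these changes, limma's smallest adjusted p was 0.78. Of the named genes, 10 of 17 lower ones had the same direction under anti-CD40 alone, where 51.5% of all genes were lower, and 8 of 18 higher ones did, where 48.5% of all genes were higher. Across all 15002 genes, the differences with and without anti-PD1 had a Pearson r of -0.30. Gjc1 differed by 0.02 under anti-CD40 alone, and the difference between its responses was -1.48 (limma, adjusted p = 0.78). Neutrophil genes had medians of -0.90 when anti-CD40 was added to anti-PD1 and of 1.18 when it was given alone, T cell genes had -0.56 when it was added and 0.56 when given alone, and fibroblast genes -0.49 when added and 0.68 when given alone. Keratinocyte genes had medians of -0.51 when it was added and 2.66 when given alone, and their part in the other medians was not tested.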

How the data were processed

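RNA was sequenced from 30 tumors, of which 7 form the comparison. The aligner STAR, the build mm10 and the normalization tool edgeR are named, without versions, per the submitters' processing notes. The deposited table of 18975 genes holds log2 CPM values made by the authors. Strandedness, annotation release and the assignment of shared reads are not given in the sources used here. Overlapping genes may therefore share reads. The values are whole reads with a prior of 2 reads scaled to library size: reads taken back were whole within 0.01 for 100% of values, and rebuilt log2 values differed by at most 2.9e-07. Depth limits precision, and in the shallower libraries 1 read equals about 0.0475 CPM.

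The filter kept 15002 genes, those above a log2 value of 0 in 3 or more of the 30 libraries. The comparisons used limma 3.58.1 (R 4.3.3), with a trend on the level and 8 group means over all 30 libraries, which share 1 estimate of the spread (22 residual degrees of freedom). A gene counted as called below an adjusted p of 0.05 (Benjamini-Hochberg). Scripts were tested on simulated data. Core genes were also tested by an exact permutation test. Gene lists are described by counts and medians without a test. Genes named from each list are members with the 2 highest levels or the 2 smallest p values, besides exceptions stated as such. The members, lists and tests were chosen with earlier results of these data known. Alternatives covered filters, the libraries in the fit, library weights, voom, centring, priors, covariates, a replicate block and the omission of libraries. GENCODE vM21 holds 18837 of the 18975 identifiers and gave the 1-based coordinates.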

Additional observations from a re-analysis of the deposited data

Results flagged for a closer look

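Some values in the 4 anti-PD1 libraries stood apart from the other 3, measured as the gap to the nearest library divided by the group's range. About 5% of such groups pass this limit by chance. The gap ratio was 0.958 for the melanocyte score, where anti-PD1 replicate 1 was low, and 0.931 for keratinocyte, 0.903 for skeletal muscle and 0.883 for circadian clock scores, where replicate 1 was high. The mural cell score had a ratio of 0.876, with replicate 3 high. A930004D18Rik had a ratio of 0.933, with replicate 1 low, Rgs4 one of 0.879, with replicate 3 high, and Sp100 one of 0.854, with replicate 4 low.

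For 13 lists every WT combination library lay below the WT anti-PD1 mean while every HET combination library lay above the HET anti-PD1 mean. The difference between these responses was not tested at the level of a list score. The WT minus HET difference of the score was -3.51 for MHC class II, -2.60 for cytotoxic and NK, -2.56 for adipocyte, -2.27 for B and plasma cell and -1.92 for IFN-gamma response genes. It was -1.82 for T cell, -1.46 for Fc receptor, -1.32 for MHC class I and peptide loading, -1.26 for dendritic cell and -0.85 for TNF receptor and ligand superfamily genes. It was -0.76 for checkpoint, -0.64 for endothelial and -0.40 for CD40 and NF-kB response genes. Against anti-CD40 alone in WT tumors, the difference was -1.47 for the T cell and -0.82 for the mural cell score: every combination library lay below the anti-PD1 mean and every anti-CD40 library above the IgG mean, and this was not tested.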

How the results depend on the processing

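The number of genes called was 0 for the WT addition, and for its difference from anti-CD40 alone and from HET mice, under every alternative run, with smallest adjusted p values of 0.13, 0.63 and 0.1. The count at an unadjusted p under 0.05, 281 in the WT addition, was 422 without a filter, 578 with library weights, 446 with keratinocyte and muscle scores as covariates, 44 with L number as a covariate and 47 within L6, where the lone anti-PD1 library is assumed to vary like the other groups. Leaving out single libraries gave 112 (without combination replicate 1) to 624 (without anti-PD1 replicate 4), with 136 without anti-PD1 replicate 3 and 449 without replicate 2. The weights did not converge in limma's default method, which gave WT anti-CD40 replicate 3 a weight of 9.01e-05. Its gene-by-gene method, added after those results were seen, gave 522. Without anti-PD1 replicates 1 and 4, chosen after seeing the data, it was 663. The causes were not tested. With a replicate block it was 217 and 0 genes were called, and the WT against HET difference had 139 higher and 438 lower responses at that p. Deviations of libraries with the same number correlated at -0.308, -0.134 and -0.082. Those of libraries with different numbers correlated at -0.332 to 0.433. No sign of pairing by number was seen, but so few pairs cannot settle whether the numbers pair the samples. With each single gene and list median counted once per alternative, 100 values moved by more than the spread between replicates and 3513 did not. A value could turn its sign without counting as moved, as the CD40 and NF-kB median did, from -0.20 to 0.04 within L6. Depth limits scarce lymphocyte genes such as Ifng, with 2 and 9 reads in combination and anti-PD1 tumors.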
